A study of Arabidopsis thaliana with 24 samples.

Results

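The 35 genes examined here code for the machinery that copies DNA in S phase, and were taken by gene identifier from the 32548 genes listed in each of the deposited tables. They are the MCM2-7 helicase (6 genes), the origin recognition complex ORC (7), the licensing loaders CDC6 and CDT1 (4), CDC45 with the GINS complex (5), replicative polymerase subunits (5), the sliding clamp PCNA with RFC1, ETG1, RPA2A and LIG1 (6), and ribonucleotide reductase (2). In plants as in other eukaryotes, ORC marks replication origins, CDC6 and CDT1 load the MCM helicase there in G1, and CDC45 and GINS then switch the helicase on as S phase starts. The polymerases copy the strands behind it, held to DNA by PCNA, while ribonucleotide reductase makes the deoxyribonucleotides. Many of these genes are transcribed in a wave at the G1 to S transition under E2F transcription factors, in dividing cells of meristems and young organs, so their transcripts are scarce in mature tissue.

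Gene expression was measured by RNA sequencing of Arabidopsis thaliana carrying combinations of mutations in HAG2, NASP, MSI2 and MSI3, which code for a type B histone acetyltransferase, a histone chaperone and a pair of histone-binding WD40 proteins of the NuB4 complex. At 12 days, seedlings from plates gave 15 libraries of 5 genotypes (hag2 nasp, msi2 msi3 nasp, hag2 msi2 msi3, nasp and the wild type Col-0, 3 each), and 9 further libraries came from chamber-grown seedlings of 20 days (hag2 msi2 msi3, msi2 msi3 and Col-0, 3 each). All groups had days of 16 h light and 8 h dark at 22 °C. The labels do not say that replicates were grown apart, and the p-values reflect the spread among these libraries, which may be technical. NASP, HAG2, MSI2 and MSI3 were lowered in the mutants named after them, except that MSI2 in the libraries labelled hag2 msi2 msi3 stood at 92.9% of the wild type at 12 days and 82.1% at 20 days, without passing the test (limma, adjusted p = 0.578 and 0.0692). The deposited values are normalized read values, whose library totals ran from 19.6 to 21.0 M in the 12-day seedlings and from 45.7 to 48.2 M in the 20-day seedlings. Fewer dividing cells and less RNA per cell cannot be told apart in such bulk samples.

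All 35 genes passed the filter on low values at both ages. The 2 ages were tested apart, because their tables were normalized separately. A gene is said to have risen or fallen where limma, fitted to all genes of one age, gave a Benjamini-Hochberg adjusted p below 0.05, and fold changes are on the log2(value + 1) scale with the standard error of the fit. Counts at an unadjusted p below 0.05 are given without the share of all genes, which was not counted.

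The DNA just before the start of some of these genes carries letters of the kind E2F factors bind. This is shown first because the letters themselves were not used to choose the genes. Many of the genes were, however, already known to be under E2F factors, so the choice was not independent of them. The 8-letter spellings TTTCCCGC, TTTCGCGC, TTTGCCGC and TTTGGCGC, none of which contains another, were searched on both strands in a window from 250 bases before to 50 bases after the annotated start of each gene (RefSeq, TAIR10.1). Of the 35 genes 15 held at least 1 match (42.9%), against 483 of the 27443 protein-coding genes of the nuclear chromosomes (1.76%). The feature is not limited to these genes: 8 of 34 other genes of the replication fork and nucleotide supply (23.5%), 2 of 10 DNA damage markers (20.0%), 2 of 19 E2F, RBR1 and S phase cyclin genes (10.5%) and 1 of the 4 genes of the NuB4 complex also held a match. The shares were 5 of 6 among the MCM genes, 4 of 7 in ORC, 3 of 5 among the polymerase subunits and 0 of 6 in the group of the clamp. Of 18 matches 14 were spelled TTTCCCGC, and 11 genes held a match that ended before the start. Stretches of 6 of them are printed 5′ to 3′ on the gene's own strand, with the match in capitals (GCGGGAAA and GCGCCAAA are TTTCCCGC and TTTGGCGC read from the other strand). They were picked to put genes that rose against the wild type in a mutant (MCM2, MCM3, ORC3, POLA1) beside genes with the same letters that passed the test in no comparison against the wild type (MCM5, MCM6). They come from chr1:16970180-16970213 on the plus strand (MCM2), chr5:18773849-18773896 on the minus strand (MCM3), chr2:3527501-3527539 on the minus strand (MCM5), chr5:18010686-18010733 on the minus strand (MCM6), chr5:5474296-5474343 on the plus strand (ORC3) and chr5:26776863-26776929 on the plus strand (POLA1).
MCM2: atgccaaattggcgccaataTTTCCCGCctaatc
MCM3: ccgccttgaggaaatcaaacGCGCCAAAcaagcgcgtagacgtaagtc
MCM5: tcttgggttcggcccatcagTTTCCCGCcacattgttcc
MCM6: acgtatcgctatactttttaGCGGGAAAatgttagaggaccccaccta
ORC3: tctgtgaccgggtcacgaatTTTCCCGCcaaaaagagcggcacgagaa
POLA1: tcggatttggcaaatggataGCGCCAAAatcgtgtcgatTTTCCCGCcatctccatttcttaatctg
A match is a description of these letters and not a binding site or a cause.

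**Figure D1:**
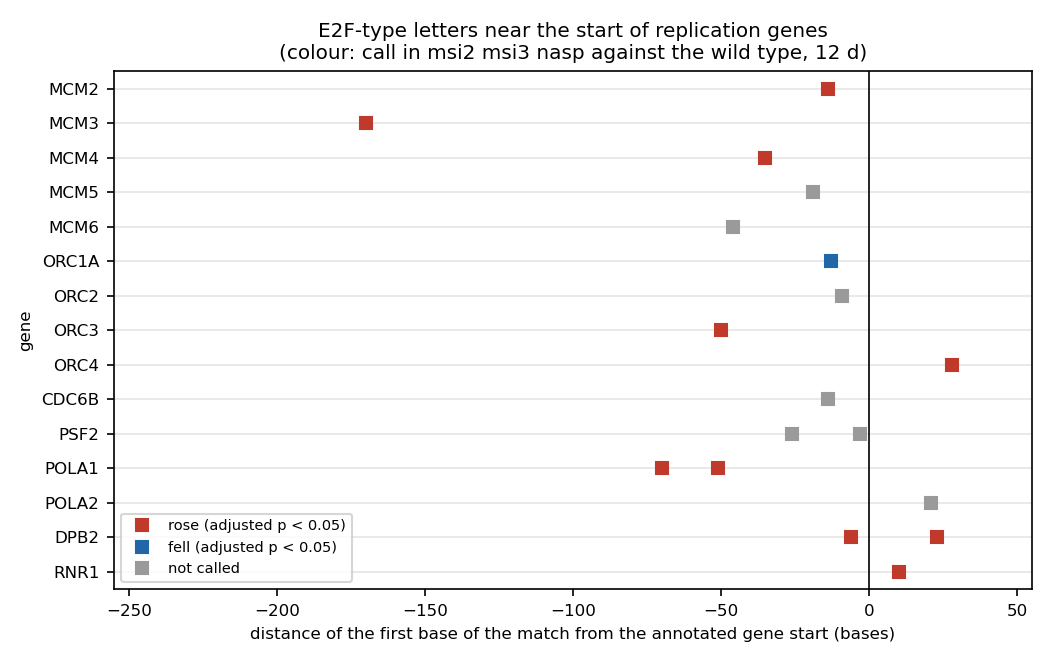
Distance in bases of the first base of each match from the annotated gene start (x axis) for the 15 replication genes that hold one (y axis), coloured by the call in msi2 msi3 nasp against the wild type at 12 days. The matches lie between -170 and 28 bases of the start, and genes that rose (8), fell (1) and were not called (6) all hold them.

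The genes differed widely in level in the wild type. Per kilobase of exon, at 12 days, the ribonucleotide reductase large subunit RNR1 (AT2G21790) was highest at 587 ± 37.5 (SD, n = 3), followed by PCNA1 at 301 ± 23.2, PCNA2 at 296 ± 39.0 and the DNA ligase LIG1 at 289 ± 17.1. The MCM genes stood between 107 and 209.9 per kilobase. ORC1A (AT4G14700), which codes for an origin recognition subunit, was lowest at 5.49 ± 1.82, and CDC6B (AT1G07270) was next at 19.6 ± 6.5. The median over the 35 genes was 92.6 per kilobase, and of the 34 neighbouring pairs in this order 8 were apart in every library, so most neighbours did not differ beyond their spread. RNR1 was also highest at 20 days, at 1649 ± 66.6 per kilobase, and ORC1A lowest, on that table's own scale.

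Most of the changes were in the nasp combinations. In hag2 nasp seedlings, 19 of the 35 genes rose and 2 fell against the wild type, where 33.1% of all genes tested rose and 33.2% fell. The msi2 msi3 nasp seedlings had 20 risen and 3 fallen, where 33.6% of all genes rose and 33.3% fell. By library, 20 of the 35 in hag2 nasp lay above every wild type library and 2 below, where 34.8% and 35.3% of all genes did. The same held for 20 and 3 genes with msi2 msi3 nasp, where 34.3% and 35.1% of all genes did. The rises were small: none of the 35 rose at least 2-fold in hag2 nasp seedlings, where 11.8% of all genes did, and 1 (ORC4) in msi2 msi3 nasp seedlings, where 11.9% did. The median log2 fold change of the 35 was 0.29 in hag2 nasp seedlings and 0.23 with msi2 msi3 nasp, against 0.00 for all genes in each. The 35 genes together made up 0.0714% to 0.0738% of the library total in hag2 nasp seedlings and 0.0706% to 0.0786% with msi2 msi3 nasp, against 0.0543% to 0.0587% in the wild type.

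**Figure D2:**
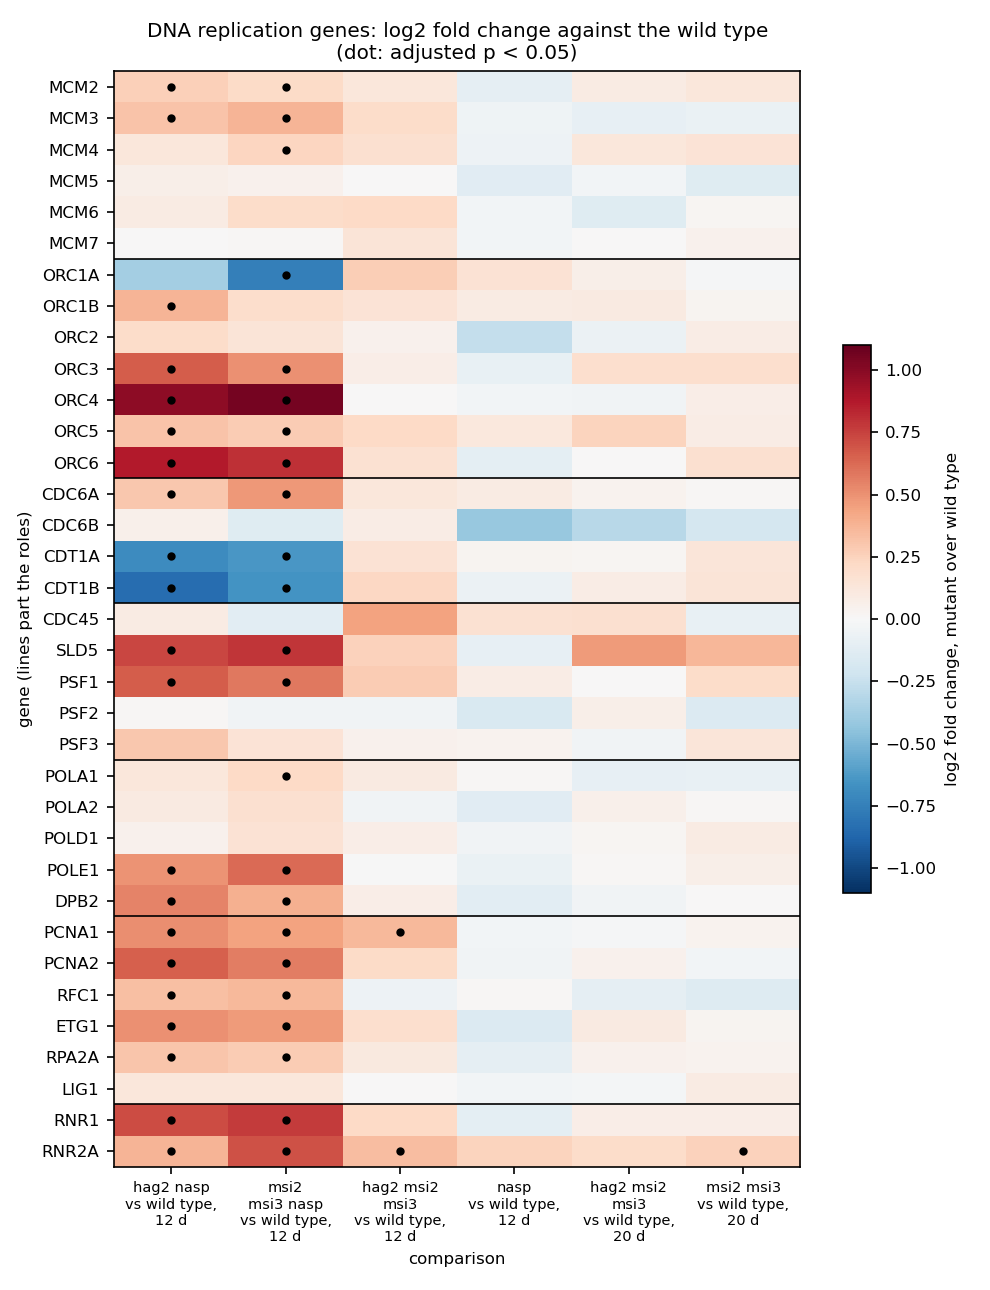
Log2 fold change against the wild type (colour) of the 35 replication genes (rows, parted by role) in 4 mutant groups at 12 days and 2 at 20 days (columns), with a dot where the adjusted p is below 0.05. Dots mark 21 and 23 of the 35 genes in the hag2 nasp and msi2 msi3 nasp columns, and the other 4 columns hold 2, 0, 0 and 1.

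Within the origin recognition complex, which marks the sites where replication starts, the subunits moved apart. ORC4 (AT2G01120) had the largest rise of the 35. Its values were 294, 323 and 315 in hag2 nasp and 333, 314 and 328 with msi2 msi3 nasp, against 162, 156 and 152 in the wild type. Every library of both mutants lay above every wild type library, and the change was 0.98 ± 0.11 in hag2 nasp (limma, adjusted p = 2.06e-07) and 1.05 ± 0.11 with msi2 msi3 nasp (limma, adjusted p = 9.03e-08). ORC6 (AT1G26840), another ORC subunit, stood at 162, 158 and 164 in hag2 nasp and 155, 145 and 161 with msi2 msi3 nasp, against 90.7, 77.0 and 96.1 in the wild type. Again no library overlapped, with changes of 0.87 ± 0.13 and 0.80 ± 0.13 (limma, adjusted p = 1.51e-05 and 3.96e-05).

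ORC3 (AT5G16690), whose upstream letters are printed above, rose by 0.66 ± 0.11 in hag2 nasp and 0.50 ± 0.11 with msi2 msi3 nasp, and ORC5 (AT4G29910) by 0.32 ± 0.09 and 0.28 ± 0.09. ORC2 (AT2G37560) did not pass the test in either, with differences of 0.21 ± 0.16 and 0.14 ± 0.16. The paralogues of the largest ORC subunit differed in sign, but in neither mutant were both called. ORC1B (AT4G12620) stood at 159.5, 152 and 149 in hag2 nasp, against 106, 135 and 115 in the wild type, and rose there by 0.38 ± 0.14 (limma, adjusted p = 0.0241). Its difference of 0.19 ± 0.14 in msi2 msi3 nasp was not called, nor was that of ORC1A in hag2 nasp (-0.37 ± 0.31). ORC1A stood at 9.53, 7.53 and 5.94 in msi2 msi3 nasp, against 13.1, 9.72 and 18.8 in the wild type, and fell there by 0.76 on the log2 scale (limma, adjusted p = 0.0372). These are low values, and the highest mutant library lay just under the lowest of the wild type. The ORC1A call ended without msi2 msi3 nasp replicate 2 or 3 or wild type replicate 1 or 3 (-0.77 to -0.53), and that of ORC1B without hag2 nasp replicate 1 or wild type replicate 1 or 3 (0.30 to 0.36). With all libraries kept, the ORC1A call also ended with only the 2 groups in the fit.

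The loaders that license origins split between CDC6 and CDT1. CDT1A (AT2G31270) and CDT1B (AT3G54710), which bring the MCM helicase to origins, fell in both nasp combinations. CDT1A had values of 199, 211 and 179 in hag2 nasp and 209.7, 186 and 211 with msi2 msi3 nasp, against 313, 338 and 298 in the wild type. It fell by 0.69 and 0.64 on the log2 scale, with no overlap between libraries (limma, adjusted p = 9.49e-06 and 2.07e-05). CDT1B had values of 60.2, 76.4 and 64.6 in hag2 nasp and 78.8, 64.8 and 85.2 with msi2 msi3 nasp, against 124, 113 and 123 in the wild type. It fell by 0.84 and 0.65 on the log2 scale, again with no overlap (limma, adjusted p = 1.58e-05 and 0.000211).

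CDC6A (AT2G29680), which acts with CDT1 in loading, moved the opposite way. It stood at 114, 117 and 131 in hag2 nasp and 127, 137 and 149 with msi2 msi3 nasp, against 109, 92.9 and 94.1 in the wild type. All mutant libraries were above all wild type libraries, and the rises were 0.29 ± 0.12 and 0.48 ± 0.12 (limma, adjusted p = 0.0465 and 0.00254). The call in hag2 nasp ended without any 1 of its libraries and without wild type replicate 2 or 3 (0.23 to 0.33), and, at the same value of 0.29, with no filter, with only the 2 groups in the fit and with the replicate number as a block. Its paralogue CDC6B had values of 38.1, 40.0 and 37.2 in hag2 nasp, inside the spread of 45.3, 23.8 and 46.6 in the wild type.

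The helicase genes had small differences. Of the 6 MCM genes, MCM2 (AT1G44900) and MCM3 (AT5G46280) rose in hag2 nasp, by 0.26 ± 0.07 and 0.31 ± 0.08, and MCM2, MCM3 and MCM4 (AT2G16440) in msi2 msi3 nasp, by 0.21 ± 0.07, 0.37 ± 0.08 and 0.23 ± 0.09. The MCM4 call ended without msi2 msi3 nasp replicate 1 (0.17) or wild type replicate 2 (0.16). MCM7 (AT4G02060) had the smallest difference of the complex. Its values were 544, 569.7 and 561 in hag2 nasp and 633, 519 and 534 with msi2 msi3 nasp, against 579, 521 and 568 in the wild type. The groups overlapped, with differences of 0.01 ± 0.08 in both. MCM5 (AT2G07690) and MCM6 (AT5G44635), whose upstream letters are printed above, had differences of 0.07 ± 0.08 and 0.09 ± 0.10 in hag2 nasp and of 0.05 ± 0.08 and 0.20 ± 0.10 in msi2 msi3 nasp, and neither passed the test against the wild type. Among the 15 genes with the E2F-type letters in the window 6 rose and 0 fell in hag2 nasp, and among the 20 without 13 rose and 2 fell, where 33.1% and 33.2% of all genes did. In msi2 msi3 nasp the counts were 8 risen and 1 fallen of 15 with the letters, and 12 risen and 2 fallen of 20 without, where 33.6% and 33.3% of all genes did. The difference between genes with and without the letters was not tested.

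**Figure D3:**
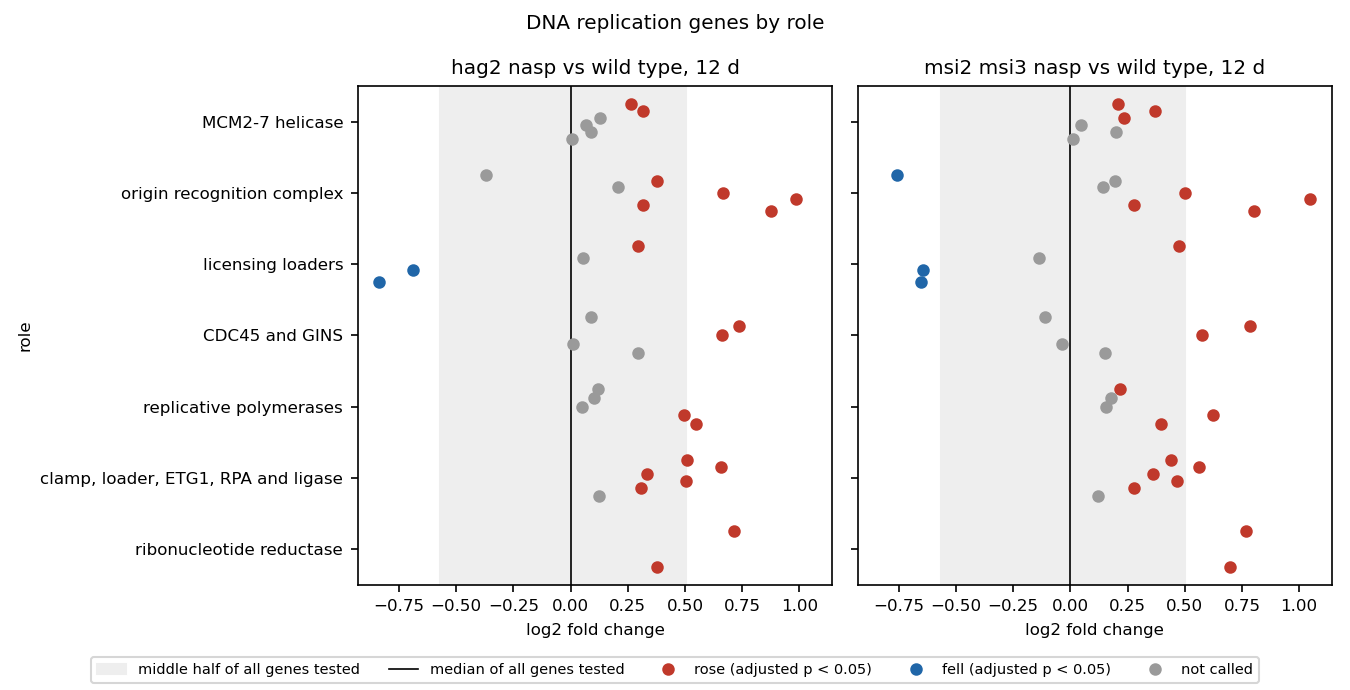
Log2 fold change (x axis) of each replication gene by role (y axis) for hag2 nasp and for msi2 msi3 nasp against the wild type, coloured by call, with the median (line) and the interquartile range (grey band) of all genes tested. The MCM genes lie between 0.01 and 0.37, the group of the clamp between 0.12 and 0.66, and the fallen points are CDT1A, CDT1B and, in msi2 msi3 nasp, ORC1A.

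The factors that switch the helicase on also moved unevenly. SLD5 (AT5G49010) and PSF1 (AT1G80190), subunits of GINS, rose in both nasp combinations. SLD5 stood at 159.6, 173 and 196 in hag2 nasp and 171, 175 and 200.2 with msi2 msi3 nasp, against 119, 102 and 95.1 in the wild type. No library overlapped, and the rises were 0.74 ± 0.14 and 0.78 ± 0.14 (limma, adjusted p = 0.000108 and 5.5e-05). PSF1 rose by 0.66 ± 0.13 and 0.58 ± 0.13. The other two GINS genes, PSF2 (AT3G12530) and PSF3 (AT1G19080), did not pass the test, with differences of 0.01 ± 0.13 and 0.29 ± 0.15 in hag2 nasp and -0.04 ± 0.13 and 0.15 ± 0.15 in msi2 msi3 nasp. CDC45 (AT3G25100), their partner on the helicase, was not called (0.09 ± 0.13 and -0.11 ± 0.13). The values of PSF3 and SLD5 are less certain, because 31.3% and 13.0% of the 50-base stretches of their exons occur elsewhere in the genome and how such reads were counted is not given in the sources used here.

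Among the polymerases, the subunits of polymerase epsilon, which copies the leading strand, rose in both. POLE1 (AT1G08260), its catalytic subunit, stood at 758, 689 and 652 in hag2 nasp and 835, 844 and 629.9 with msi2 msi3 nasp, against 502, 492 and 491 in the wild type. All mutant libraries were higher, with rises of 0.50 ± 0.09 and 0.62 ± 0.09 (limma, adjusted p = 0.000134 and 1.07e-05). Its second subunit DPB2 (AT5G22110) rose by 0.55 ± 0.13 and 0.39 ± 0.13, and the call in msi2 msi3 nasp ended without wild type replicate 2 (0.25) or msi2 msi3 nasp replicate 1 (0.33). POLA1 (AT5G67100), the catalytic subunit of the primase polymerase alpha, rose by 0.22 ± 0.07 in msi2 msi3 nasp and was not called in hag2 nasp (0.12 ± 0.07). POLA2 (AT1G67630) and POLD1 (AT5G63960), the catalytic subunit of polymerase delta, were called in neither against the wild type, with differences between 0.05 and 0.18.

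The clamp and its partners rose more evenly, 5 of 6 in each nasp combination, where 33.1% (hag2 nasp) and 33.6% (msi2 msi3 nasp) of all genes rose. PCNA2 (AT2G29570), one of the sliding clamps, stood at 521, 535 and 598 in hag2 nasp and 497, 477 and 575 with msi2 msi3 nasp, against 389, 299 and 364 in the wild type. It rose by 0.66 ± 0.10 and 0.56 ± 0.10, with no overlap (limma, adjusted p = 7.87e-06 and 4.73e-05), and PCNA1 (AT1G07370) by 0.51 ± 0.08 and 0.44 ± 0.08. ETG1 (AT2G40550), an MCM-binding protein named for being an E2F target, rose by 0.51 ± 0.09 and 0.47 ± 0.09. The clamp loader subunit RFC1 (AT5G22010) rose by 0.33 ± 0.07 and 0.36 ± 0.07, and RPA2A (AT2G24490), which coats single-stranded DNA, by 0.31 ± 0.08 and 0.28 ± 0.08. LIG1 (AT1G08130), which seals Okazaki fragments, was not called (0.13 ± 0.06 and 0.12 ± 0.06).

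Both ribonucleotide reductase genes rose in each nasp combination, where 33.1% (hag2 nasp) and 33.6% (msi2 msi3 nasp) of all genes did. RNR1 stood at 2889, 2819 and 2963 in hag2 nasp and 3113, 2983 and 2897 with msi2 msi3 nasp, against 1889, 1720.5 and 1675 in the wild type. The groups were far apart, with rises of 0.72 ± 0.07 and 0.77 ± 0.07 (limma, adjusted p = 2.47e-08 and 9.86e-09). RNR2A (AT3G23580), a small subunit of the enzyme, stood at 494, 449 and 508 in hag2 nasp and 575, 595 and 645 with msi2 msi3 nasp, against 395, 363 and 359.6 in the wild type. Its rises were 0.38 ± 0.08 and 0.70 ± 0.08 (limma, adjusted p = 0.000536 and 5.29e-07). Set against each other, the nasp combinations differed in RNR2A alone of the 35, which was lower in hag2 nasp than in msi2 msi3 nasp by -0.32 ± 0.08 (limma, adjusted p = 0.0233), where 3.07% of all genes tested rose and 3.26% fell. That call was lost without hag2 nasp replicate 1 or 2, or msi2 msi3 nasp replicate 2 or 3 (-0.34 to -0.27).

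**Figure D4:**
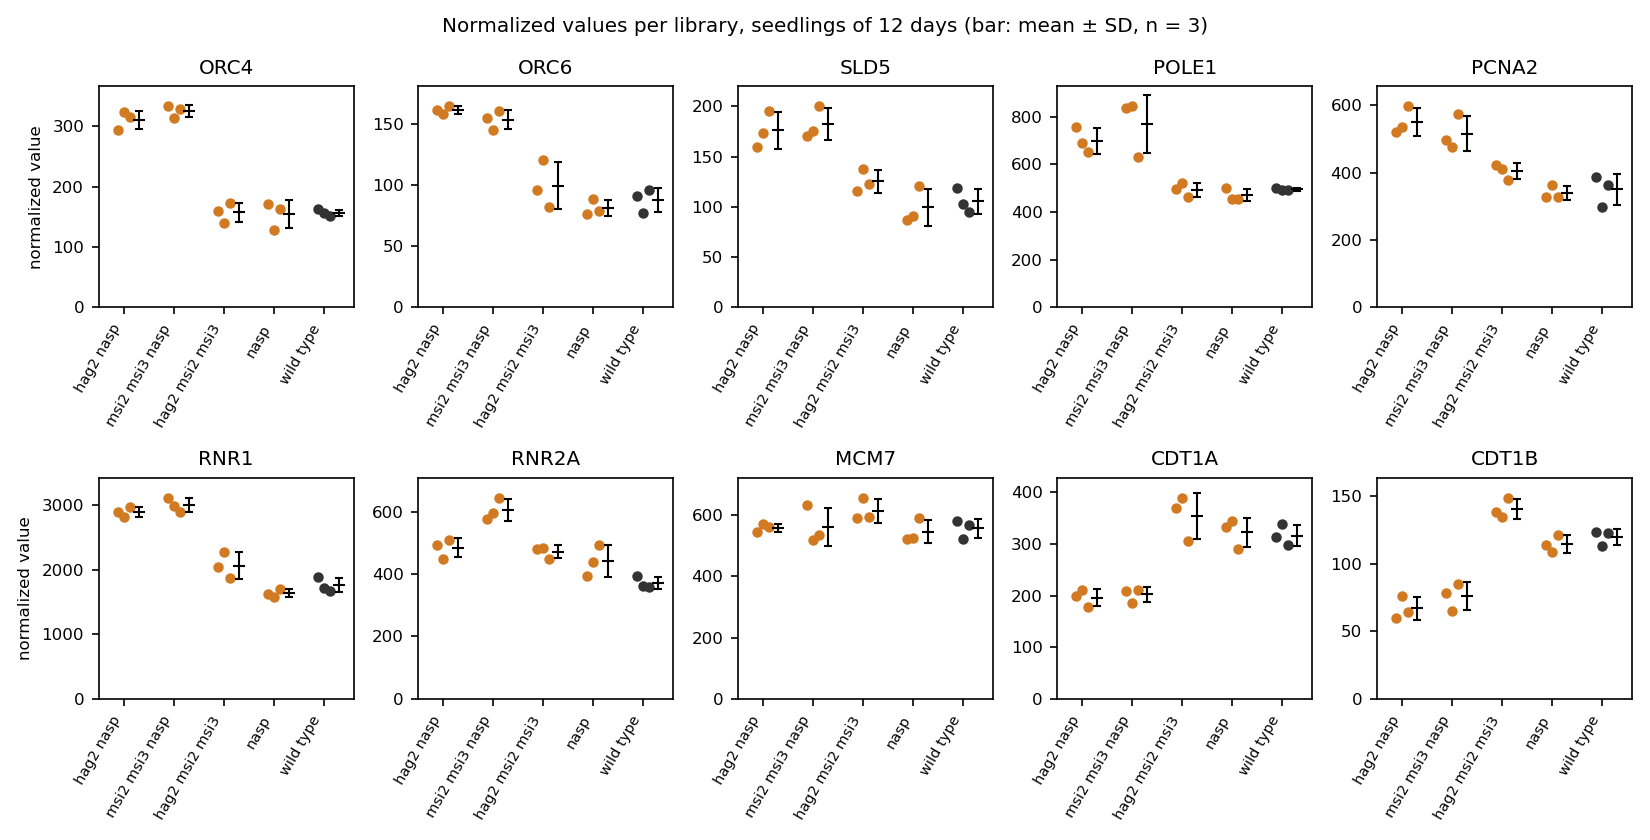
Normalized value (y axis, from 0) of 10 replication genes in each library of 12-day seedlings, by genotype (x axis), with the mean ± SD of 3 libraries beside the points. ORC4 lies between 294 and 333 in the nasp combinations and between 152 and 162 in the wild type, CDT1B between 60.2 and 85.2 and between 113 and 124, and MCM7 in both nasp combinations overlaps with the wild type.

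Against nasp, which sets seedlings with further mutations beside seedlings with the nasp mutation alone, the 35 genes again rose more often than they fell. In hag2 nasp 19 rose and 2 fell against nasp, where 33.5% of all genes rose and 33.3% fell, and with msi2 msi3 nasp 23 were higher and 3 lower than in nasp, where 33.6% rose and 33.3% fell. The medians were 0.29 and 0.31, and 0.01 and 0.00 for all genes. ORC4 rose by 1.02 ± 0.11 and 1.08 ± 0.11, SLD5 by 0.83 ± 0.14 and 0.88 ± 0.14, and RNR1 by 0.82 ± 0.07 and 0.88 ± 0.07, while CDT1A fell by 0.71 and 0.67 on the log2 scale. ORC2 and LIG1, not called against the wild type, rose against nasp by 0.47 ± 0.16 and 0.16 ± 0.06 in hag2 nasp and by 0.40 ± 0.16 and 0.15 ± 0.06 in msi2 msi3 nasp. The ORC2 calls ended without nasp replicate 2 or hag2 nasp replicate 3 in the first (0.40 and 0.34) and without nasp replicate 1 or 2 or msi2 msi3 nasp replicate 1 or 3 in the second (0.30 to 0.42). Those of LIG1 ended without nasp replicate 1 or 3, or replicate 1 or 2 of either mutant (0.12 to 0.16). The LIG1 call in msi2 msi3 nasp also ended with only the 2 groups in the fit. POLA2, also not called against the wild type, rose against nasp by 0.22 ± 0.09 in hag2 nasp and by 0.30 ± 0.09 in msi2 msi3 nasp, and its call in hag2 nasp ended without hag2 nasp replicate 1 or 3 or nasp replicate 1 or 3 (0.17 to 0.23). MCM5 rose in hag2 nasp against nasp (0.19 ± 0.08, adjusted p = 0.0478 by limma) and MCM6 in msi2 msi3 nasp (0.23 ± 0.10, adjusted p = 0.0499 by limma). The MCM5 call ended without any 1 nasp library or hag2 nasp replicate 1 or 2 (0.15 to 0.21), and the MCM6 call without nasp or msi2 msi3 nasp replicate 1 or 2 (0.16 to 0.23). Both calls also ended with no filter, without the trend in the fit and with the replicate number as a block. The MCM6 call ended with a pseudocount of 0.1 or 5 as well. RNR2A was not called in hag2 nasp against nasp (0.13 ± 0.08). These comparisons use the same mutant libraries as those against the wild type.

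In nasp itself 0 of the 35 genes changed by limma's adjusted p, where 3.89% of all genes tested did, and 1 had an unadjusted p below 0.05. The median was -0.04, against 0 for all genes, and 24 of the 35 differences were negative. In the same libraries 17 of 18 mitotic genes (median 0.16) and 6 of 9 DNA damage markers (median 0.25) were positive. The gene past the unadjusted p was RNR2A, which stood at 393, 438 and 495 in nasp, against 395, 363 and 359.6 in the wild type (0.24 ± 0.08, adjusted p = 0.126 by limma). Without nasp replicate 1 RNR2A rose, by 0.32.

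In the libraries labelled hag2 msi2 msi3 at 12 days, 2 genes rose and 0 fell, where 2.08% of all genes tested rose and 1.96% fell. By library, 7 of the 35 lay above every wild type library and 0 below, where 12% and 12.2% of all genes did. The differences leaned one way: 31 of the 35 were positive, with a median of 0.14 against 0 for all genes. An unadjusted p below 0.05 was found for 9. The share of all genes at that p was not counted, so the 9 cannot be weighed. The quartiles of all genes were -0.12 and 0.13. In the same libraries 17 of 18 mitotic genes (median 0.28, 2 risen) and 8 of 9 DNA damage markers (median 0.31, 3 risen) were also positive, and their part in the result was not tested. PCNA1 stood at 425, 433 and 446, against 314, 339 and 367 in the wild type, and rose by 0.36 ± 0.08 (limma, adjusted p = 0.0231). RNR2A stood at 482, 485 and 448, against 395, 363 and 359.6 in the wild type, and rose by 0.34 ± 0.08 (limma, adjusted p = 0.0256). Neither gene's libraries overlapped with the wild type, but the PCNA1 call was lost without any 1 of the mutant libraries or wild type replicate 1 or 2 (0.30 to 0.37). The RNR2A call was lost without hag2 msi2 msi3 replicate 1 or 2 or wild type replicate 2 or 3 (0.32 in each). CDC45 stood at 126, 121 and 109, against 90.7, 87.4 and 82.2 in the wild type, the widest difference of the 35 here, but was not called (0.45 ± 0.13, adjusted p = 0.0722 by limma). RNR1 was not called either (0.22 ± 0.07, adjusted p = 0.0706 by limma).

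At 20 days 1 of the 35 genes passed the test. In msi2 msi3 1 rose and 0 fell, where 7.6% of all genes tested changed, and in hag2 msi2 msi3 0 changed, where 4.29% did and 3 of the 35 had an unadjusted p below 0.05. The gene that rose in msi2 msi3 was RNR2A, at 1619, 1523 and 1648 against 1324, 1328 and 1372 in the wild type (0.25 ± 0.07, adjusted p = 0.0440 by limma). Its groups did not overlap, but the call was lost without any 1 of the 6 libraries (0.23 to 0.28). In hag2 msi2 msi3 it stood at 1589, 1455 and 1579 and was not called (0.20 ± 0.07, adjusted p = 0.147 by limma). SLD5 was above the wild type in all libraries of both mutants, at 297, 291 and 302 with hag2 msi2 msi3 and 285, 275 and 266 with msi2 msi3, against 221, 222 and 199 in the wild type. Its differences of 0.47 ± 0.13 and 0.37 ± 0.13 missed the threshold (limma, adjusted p = 0.0520 and 0.102). In hag2 msi2 msi3 SLD5 passed it under 4 alternatives. ORC4, the gene with the largest rise at 12 days in the nasp combinations, stood at 529 ± 57.3 with hag2 msi2 msi3 and 570.4 ± 37.9 with msi2 msi3, against 545 ± 77.8 in the wild type (SD, n = 3). In hag2 msi2 msi3 against msi2 msi3, 0 of the 35 changed by limma, also at an unadjusted p below 0.05, where 1.19% of all genes did by the adjusted p.

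Other genes of the replication fork and of nucleotide supply were also mostly higher. Of 34 such genes 21 rose and 4 fell with hag2 nasp (median 0.44), and 22 were up and 3 down with msi2 msi3 nasp (median 0.39). Of all genes, 33.1% rose and 33.2% fell in the first and 33.6% and 33.3% in the second. TSO2, the ribonucleotide reductase small subunit gene needed for normal plant development, rose by 1.63 ± 0.06 and 1.43 ± 0.06, and the thymidine kinase gene TK1A by 1.55 ± 0.08 and 1.43 ± 0.08. The polymerase delta subunit gene POLD4 rose by 1.57 ± 0.09 and 1.48 ± 0.09, and RPA1E, a large subunit of the single-strand binding complex, by 2.41 ± 0.14 and 2.37 ± 0.14. The topoisomerase gene TOP2 fell by 1.16 and 0.95 on the log2 scale. In hag2 msi2 msi3 at 12 days 3 of the 34 rose, where 2.08% of all genes did, namely TSO2 (0.41 ± 0.06), TOP2 (0.39 ± 0.09) and the dUTPase gene DUT1 (0.46 ± 0.12), and 0 changed by limma in nasp or, among the 20-day seedlings, with hag2 msi2 msi3 or msi2 msi3 (4, 4 and 3 at an unadjusted p below 0.05). By the adjusted p, 3.89%, 4.29% and 7.6% of all genes changed in these.

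The regulators of S phase were called at about the rate of all genes. Of 18 tested genes for E2F factors, their repressor RBR1 and S phase cyclins, 6 rose and 5 fell with hag2 nasp (median -0.02), and 5 were up and 6 down with msi2 msi3 nasp (median -0.07), where 33.1% and 33.2%, and 33.6% and 33.3%, of all genes rose and fell. The D-type cyclin gene CYCD1;1 fell by 1.96 and 2.03 and the atypical E2F gene DEL2 by 2.14 and 1.90 on the log2 scale, while CYCD2;1 rose by 0.92 ± 0.07 and 0.87 ± 0.07. CYCD3;2 fell by 0.79 and 0.66 on the log2 scale and its relative CYCD3;3 rose by 0.65 ± 0.08 and 0.67 ± 0.08.

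Genes of mitosis mostly fell in the nasp combinations. Of 18 mitotic genes 1 rose and 15 fell in both nasp combinations, with medians of -0.80 for hag2 nasp and -0.69 for msi2 msi3 nasp. Of all genes tested, 33.1% rose and 33.2% fell in hag2 nasp, and 33.6% and 33.3% in msi2 msi3 nasp. The cytokinesis syntaxin gene KNOLLE fell by 1.16 and 0.78, CYCB1;2 by 1.18 and 1.12, the anaphase activator gene CDC20.1 by 1.19 and 0.93 and the Aurora kinase gene AUR1 by 0.96 and 0.80 on the log2 scale. The gene that rose was CYCB1;1, a B-type cyclin known to be induced by DNA damage, by 1.79 ± 0.10 and 1.75 ± 0.10. In nasp 2 mitotic genes rose (CYCB1;1 and KNOLLE), in hag2 msi2 msi3 at 12 days 2 rose (CYCB1;1 and CYCB1;2), and at 20 days CYCB2;1 fell in both mutants. DNA damage markers rose in both nasp combinations, 9 of 9 tested, with medians of 2.81 and 2.60, among them the poly(ADP-ribose) polymerase gene PARP2 by 2.81 ± 0.08 and 2.59 ± 0.08 and the cyclin-dependent kinase inhibitor gene SMR7 by 5.35 ± 0.19 and 5.06 ± 0.19. The summed value of the damage markers was 9220 to 9883 for hag2 nasp and 8543 to 8913 for msi2 msi3 nasp, against 998 to 1072 in the wild type, with SMR5 at 0 throughout. In nasp 2 of the 9 rose (3.89% of all genes changed), and in hag2 msi2 msi3 at 12 days 3 rose (2.08% of all genes rose). At 20 days 3 rose in hag2 msi2 msi3 (4.29% of all genes changed) and 2 in msi2 msi3 (7.6% changed). At 12 days the risen markers were at3g45730 and at5g60250 in nasp and XRI1, GMI1 and at5g60250 in hag2 msi2 msi3. At 20 days they were GMI1 and at3g45730 in both mutants and at5g60250 in hag2 msi2 msi3. The summed value of the mitotic genes was 1966 to 2212 and 2194 to 2359.9, against 2971 to 3142 in the wild type. The part of either list in the changes of the replication genes was not tested.

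**Figure D5:**
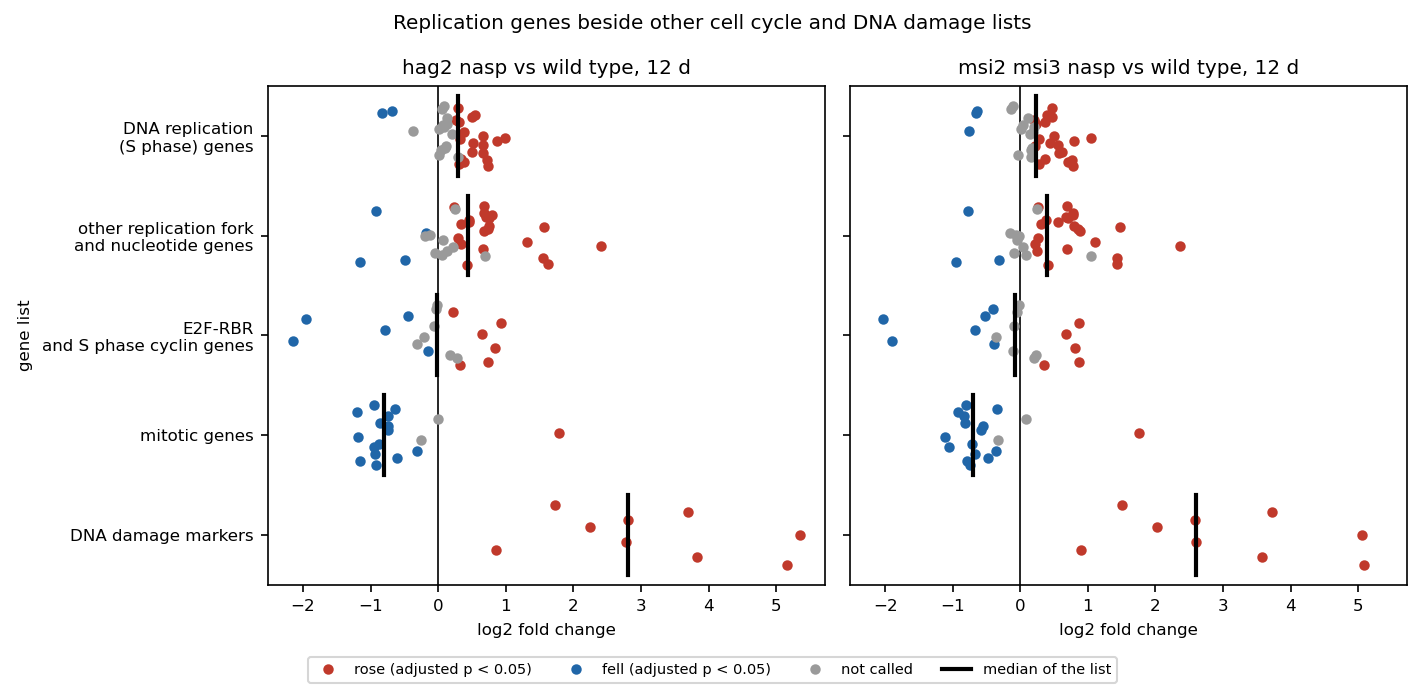
Log2 fold change (x axis) of each tested gene of 5 lists (y axis) for hag2 nasp and for msi2 msi3 nasp against the wild type, coloured by call, with the median of each list as a black bar. The medians are 0.29 and 0.23 for the replication genes, -0.80 and -0.69 for the mitotic genes and 2.81 and 2.60 for the DNA damage markers.

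Markers of organs and cell types moved in the same libraries, where 33.1% of all genes rose and 33.2% fell with hag2 nasp. With msi2 msi3 nasp 33.6% of all genes rose and 33.3% fell. Of 12 root markers 11 fell and 1 rose in each nasp combination, with summed values of 1974 to 2110.3 for hag2 nasp and 1711 to 1852 for msi2 msi3 nasp, against 3514 to 3735 in the wild type. Of 5 tested mesophyll markers 5 fell in each, and their sums were 249741 to 264974 and 236995 to 296298, against 629376 to 662861 in the wild type. Of 8 tested shoot apical meristem markers 6 rose and 1 fell with hag2 nasp, and 7 were up and 1 down with msi2 msi3 nasp. Their sums stood at 1024 to 1237 and 1047 to 1335, against 1711 to 1829 in the wild type, and CLV1 fell by 1.47 and 1.65 on the log2 scale. Of these markers CLV3 and WUS were at 0 in all wild type libraries at 12 days, and LHCB1.5 was at 0 in all libraries. WUS was also at 0 in nasp and hag2 msi2 msi3 at 12 days. It therefore passed the filter only through the nasp combinations. WUS is among the 7 that rose with msi2 msi3 nasp, so that count is not independent of the filter. Whether a change in organ or meristem makeup has a part in the changes of the replication genes was not tested.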

How the data were processed

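Total RNA was sequenced from 24 libraries, single-end over 50 bp at 12 days and paired-end over 150 bp at 20 days, per the labels. The submitters' processing notes name bcl2fastq, HISAT2, edgeR and TAIR10; the sources used here do not name the read counter, the annotation or tool versions. The values deposited by the authors are a normalized signal per gene that is not whole (0.154% and 0.162% of values of 1 or more lay within 0.001 of a whole number), so read counts and depth are unknown and no counting error is given. At 20 days, 72771 values below 1e-09 were read as 0. Values were taken as log2(value + 1). Genes reaching 1 in 3 or more libraries (24305 and 23707) entered tests with limma 3.58.1 (lmFit, eBayes with trend, R 4.3.3) on all groups of one age together, tested on simulated data beforehand. Per-kilobase levels use RefSeq exon lengths (TAIR10.1). The 35 genes and all gene lists were chosen with earlier results of these data known. All 35 may be named; of other lists the 5 lowest adjusted p in hag2 nasp, and genes called where few of a list were, are named.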

Additional observations from a re-analysis of the deposited data

How the results depend on the processing

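Other pseudocounts (0.1 and 5), no filter or a filter at 10, equal medians, division by the library total, fits of the compared groups alone, no trend and the replicate number as a block turned no direction among the called genes. Of the 21 and 23 calls for hag2 nasp and msi2 msi3 nasp against the wild type, 19 and 20 were kept under all of these and without any 1 library; those lost at least once were CDC6A and ORC1B, and DPB2, MCM4 and ORC1A. Of the 21 and 26 calls against nasp, 17 and 21 were kept, and 20 and 24 under the settings that used all libraries. The small counts were less stable, and the cause was not tested. In hag2 msi2 msi3 against the wild type at 20 days the count was 1 (SLD5), in place of 0, with a pseudocount of 0.1, a filter at 10, equal medians or no trend. In msi2 msi3 at 20 days the count of 1 was 0 with equal medians, with the replicate block and without any 1 library (0 to 0); without trend SLD5 was called there in place of RNR2A. Without trend it was 0 in hag2 msi2 msi3 at 12 days (main count 2) and 0 in hag2 nasp against msi2 msi3 nasp (main count 1). Leaving out single libraries gave 0 to 2 in hag2 msi2 msi3 at 12 days, 0 to 1 in hag2 nasp against msi2 msi3 nasp, and 0 to 1 in nasp. Same-numbered libraries deviated little together (39 correlations from -0.0557 to 0.0956, none over 0.1), and 78 correlations of differently numbered libraries ran from -0.0895 to 0.0580. The main fit did not pair them. Being deviations from means of 3 libraries, these values cannot show whether same-numbered samples shared a batch. With the replicate block the counts against the wild type were 20 for hag2 nasp and 23 for msi2 msi3 nasp. Over all genes, 819 rose and 983 fell in msi2 msi3 at 20 days, and 1056 and 766 after division by the library total; in nasp 608 and 337, and 481 and 525; in hag2 msi2 msi3 against msi2 msi3 242 and 39, and 142 and 65. In hag2 msi2 msi3 against the wild type at 20 days 612 rose and 405 fell, and 800 and 324 with equal medians. A count model was not run, since the values are not counts. Depth is unknown, so low values such as ORC1A's carry an unknown counting error.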
